A study of Danio rerio with 9 samples.

Results

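The data described here are the changes in the larval zebrafish liver after impurity J, one of the impurities of the macrolide antibiotic azithromycin. They consist of the deposited pathway table for the library titled impurity J, each row of which is one pathway term with the differentially expressed genes (DEGs) found in it. All rows of its 3 databases, KEGG, Reactome, and PANTHER, and all distinct genes in them were taken, with genes matched by Entrez identifier. The table held 870 rows and 378 distinct genes, of the 7048 rows and 1154 genes in the 8 tables of the series. Among the 378 genes, 188 were listed as upregulated and 190 as downregulated in impurity J larvae against DMSO larvae.

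The impurity J library came from livers dissected from wild-type AB larvae that had been exposed to 2 mM impurity J for 72 h, from 3 dpf (days postfertilization) to 6 dpf. The DMSO library came from livers of wild-type AB larvae kept with the solvent over the same period. Azithromycin and 6 further impurities (F, I, L, Q, R, and S), at the same concentration and over the same time, had 1 library each, and all 8 comparisons used the single DMSO library. The title names impurity J, and how many larvae were pooled for a library is not given in the sources used here.

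With 1 library per condition, no difference below has a replicate check and none was tested. The table gives the name and direction of a gene and no expression value, so neither the depth of the libraries nor how far a gene changed is known. Per the study's methods, a DEG had a fold change of at least 2, a threshold stated for upregulated genes. A gene that is not listed may have changed by less or belong to no pathway of the 3 databases, and it could also be missing for a reason that the table does not show, so that its absence is not evidence that it did not change. For the same reason the labelled tissue could not be checked against levels of its markers. Of the hepatocyte markers, fgb was listed as upregulated and tfa as downregulated, whereas fabp10a and hnf4a were in none of the 8 tables. In bulk tissue, fewer cells of a type and less RNA per cell cannot be told apart.

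The hepatocyte takes up drugs and endogenous compounds, modifies them with cytochrome P450 and conjugating enzymes, and exports the products and the bile salts through ABC transporters of its membrane. It also makes most of the clotting and complement proteins of the blood. Its use of glucose and lipids is set by insulin, through phosphoinositide 3-kinase (PI3K), AKT, and mTOR, and by glucagon. AP-1, a dimer of Fos, Jun, Maf, and related proteins, is a transcription factor that many stress signals induce.

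The size of the impurity J list used in the authors' pathway test was recovered from the deposited p-values. All of them were given by 1 pair of totals, 1063 listed genes and 18311 background genes. The list was therefore 5.81% of the size of the background. Whether it held every DEG of the study is not known. The 378 genes with a pathway were 32.8% of the 1154 genes that appear in any of the tables, with 16.3% upregulated and 16.5% downregulated. These shares are the background against which the counts of each gene list below are read. The 1154 genes are themselves defined by the tables, the impurity J table included.

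The lists of pathways and cell type markers together held 86 of the 378 genes, and the plot of list members by direction shows that 14 of the 30 lists had listed genes in both directions. A list whose listed members all lay in one direction, with at least 3 of them, was found for the proteasome (5 upregulated), for markers of endothelial, biliary, and stellate cells (3 upregulated), and for amino acid, urea, and one-carbon metabolism (3 downregulated). Oxidative phosphorylation had the largest share among lists with at least 5 members in any table, with 7 of 9 genes listed, but in both directions. Over all its background genes, the KEGG term of that name held 8 of 123 (6.50%), near the 6.02% of all gene and term pairs of KEGG.

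**Figure D1:**
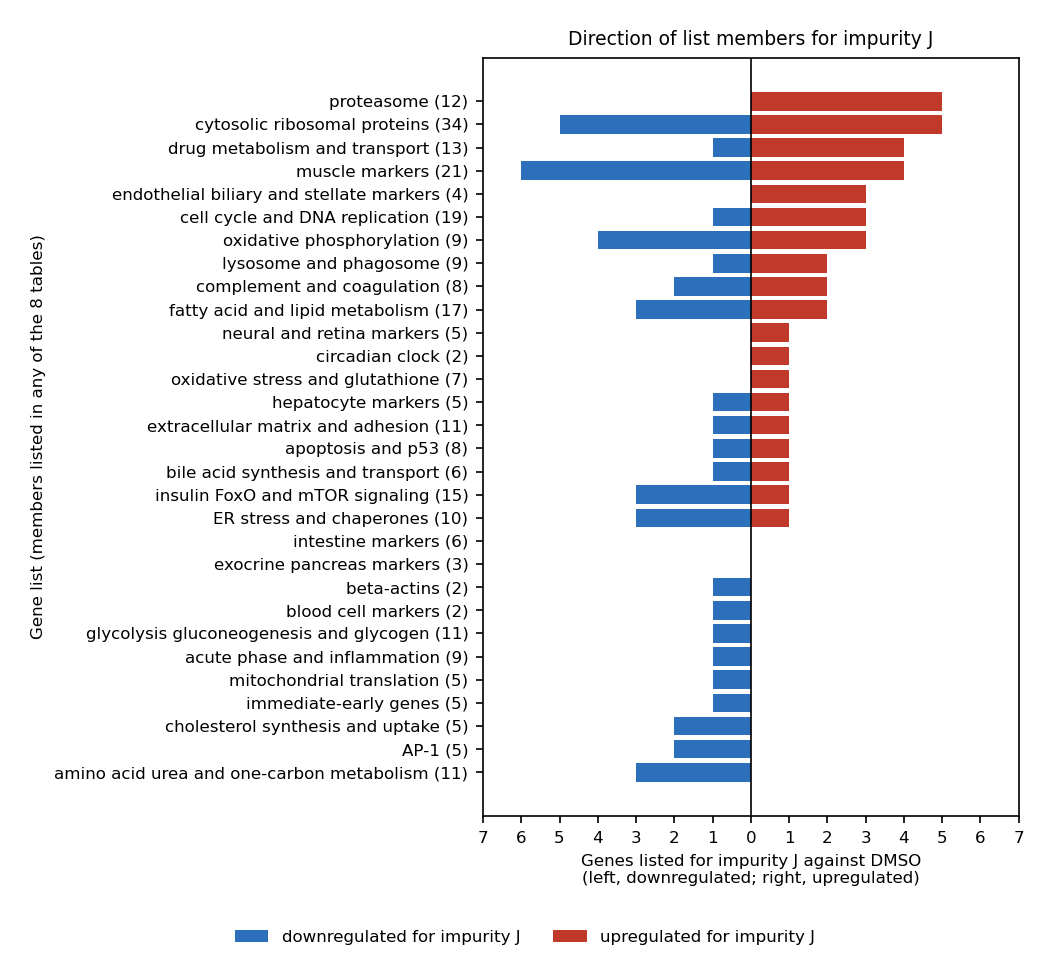
Number of genes of each list that were listed for impurity J against DMSO, with upregulated genes to the right of 0 in red and downregulated genes to the left in blue; the number in brackets is that of list members in any of the 8 tables. The proteasome list had 5 genes to the right and none to the left, and the muscle list had 4 to the right and 6 to the left.

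AP-1 is the complex of c-Fos, whose zebrafish gene is fosab. In the impurity J table fosab was not listed, whereas it was listed as upregulated for azithromycin and impurity L. Its absence from a table does not show that its level was unchanged, and no difference between the compounds can be read from it. Of the 5 AP-1 genes in any table, fosl1a (Entrez 564241), a Fos-related protein, and mafga (Entrez 415134), a small Maf protein, were listed as downregulated for impurity J. Both were also downregulated for azithromycin, and mafga for impurities Q and S. The remaining members, fosaa and jun, were not listed for impurity J. Among the 5 immediate-early genes in any table, those that a stimulus induces first, nr4a3 (Entrez 548604), an orphan nuclear receptor, was downregulated for impurity J, azithromycin, and impurity Q, and no other member was listed for impurity J. The circadian repressor nr1d1 was listed as upregulated for impurity J and also for azithromycin and impurities I, Q, R, and L.

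The proteasome degrades proteins tagged with ubiquitin. Of its 12 genes in any table, 5 (41.7%) were listed for impurity J, beside 32.8% of all genes. All 5 were upregulated. They were the core subunit psma1 (Entrez 445033), the regulatory particle subunits psmd1 (Entrez 554967) and psmd8 (Entrez 415221), the ubiquitin receptor adrm1 (Entrez 796450), and psme4b (Entrez 553346), which encodes the activator PA200. The other comparisons, which share the DMSO library, did not list the 5 genes alike. Both psma1 and adrm1 were upregulated in 6 of the 7 other tables, whereas psmd8 was listed besides only for impurity I, as upregulated. The gene psme4b was upregulated for azithromycin and impurities I, S, and F but downregulated for impurities Q and L. The gene psmd1 was upregulated for impurity J and impurity F and downregulated for azithromycin and impurities I, Q, R, and S. The deubiquitinase-related gene asxl2 and yod1, a deubiquitinase of the endoplasmic reticulum pathway, were upregulated for impurity J as well. Genes of ubiquitin conjugation were listed in both directions. The cullin cul4b and the SUMO ligase pias1b were upregulated, and the F-box proteins fbxw11b and fbxo44.9, the ubiquitin-conjugating enzyme ube2e1, the ligase trip12, and gps1, a subunit of the COP9 signalosome, were downregulated. The KEGG term for ubiquitin mediated proteolysis held 3 upregulated and 5 downregulated genes of 125.

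**Figure D2:**
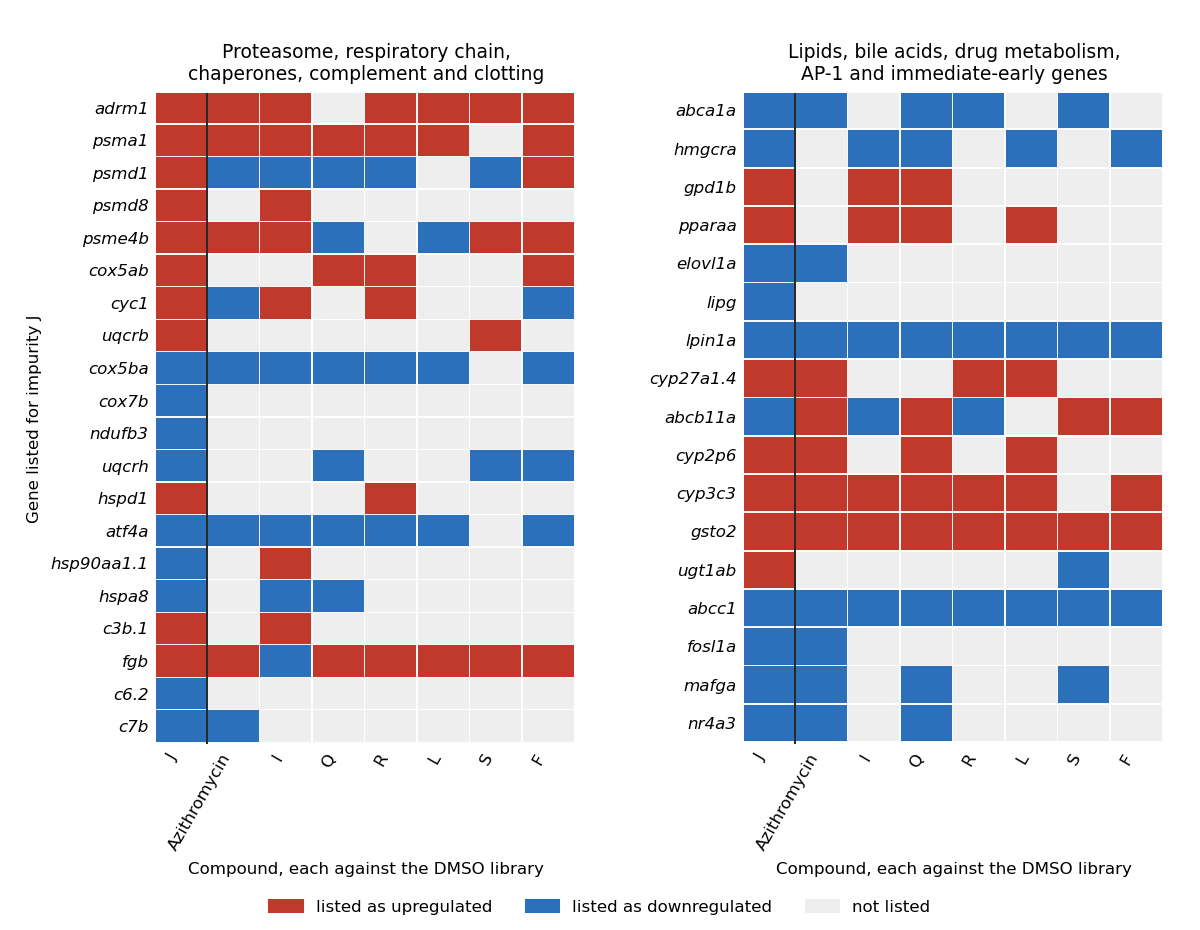
Direction of list members in the impurity J table (left column of each panel, before the line) and in the other 7 tables, all against the same DMSO library; red is upregulated, blue is downregulated, and grey is not listed. All 5 proteasome genes are red for impurity J, whereas psmd1 is blue for azithromycin and for impurities I, Q, R, and S.

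Kinases of the insulin and growth factor pathways were listed in both directions. The PI3K subunits pik3r1 (Entrez 557176), which is regulatory, and pik3cb (Entrez 100002263), which is catalytic, were both downregulated for impurity J. Downregulation of pik3r1 was also listed in 6 of the 7 other tables, all but that of impurity R, whereas pik3cb was listed elsewhere for impurity F alone, as upregulated. Downstream of PI3K, akt2l, an AKT kinase, mlst8 (Entrez 792689), a subunit of both mTOR complexes, tsc1a, an inhibitor of mTORC1, and eif4e1c, a cap-binding translation factor, were also listed as downregulated. Of these, mlst8 was listed besides only for impurity F, as downregulated, and akt2l was upregulated for impurity L. Thus both an mTOR subunit and an mTOR inhibitor were on the same side for impurity J. In the Raf and p38 branches, raf1a, araf, mapk14b (Entrez 266756), which encodes a p38 kinase, and the kinase mknk1 were downregulated, whereas map2k4a, a kinase upstream of JNK and p38, and the adaptor shc1 were upregulated. Calcium/calmodulin-dependent kinase camk2d1 (Entrez 445208), the GTPase rhoab, and rasgrf1, an exchange factor, were downregulated as well. The insulin signaling term of KEGG held 12 of 144 background genes, with 3 upregulated and 9 downregulated, and the mTOR signaling term held 9 of 163, with 1 upregulated and 8 downregulated. FoxO signaling (11 of 151, with 5 upregulated and 6 downregulated) and MAPK signaling (16 of 269, with 7 upregulated and 9 downregulated) were nearly even. The shares were 8.33% for insulin, 7.28% for FoxO, 5.95% for MAPK, and 5.52% for mTOR signaling. The share of all gene and term pairs of KEGG was 6.02%. Of the wider list of insulin, FoxO, and mTOR genes, 4 of 15 (26.7%) were listed, a share near the 32.8% of all genes. They were pik3r1, pik3cb, and tsc1a as downregulated and prkag2a, an AMP-activated kinase subunit, as upregulated.

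Receptors that act on the hepatocyte were found on both sides. The glucagon receptor gcgra (Entrez 562973) and the hepatocyte growth factor receptor met (Entrez 100150664) were upregulated for impurity J and were listed in no other table. The vasopressin receptor avpr1aa and the nuclear receptor rxrba, a partner of many metabolic nuclear receptors, were downregulated and were also listed in no other table. The leptin receptor lepr was downregulated for impurity J and in each of the other 7 tables. Of the TGF-beta and BMP pathway, the receptor bmpr1ab, the transducers smad2 and smad5, the coactivator crebbpa, and e2f4 were upregulated, and ppp2cb, a phosphatase subunit, and rhoab were downregulated, which is 7 of the 85 background genes of that KEGG term (8.24%).

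Genes of lipid metabolism were listed in both directions, with 5 of 17 in any table (29.4%), a share near that of all genes. Those that were downregulated for impurity J included lpin1a (Entrez 799099), a phosphatidate phosphatase, the elongase elovl1a, and lipg, endothelial lipase. In all 8 tables lpin1a was downregulated, whereas elovl1a was downregulated for azithromycin besides and lipg was listed for impurity J only. Upregulated were pparaa (Entrez 563298), the nuclear receptor that induces fatty acid oxidation, and gpd1b, glycerol-3-phosphate dehydrogenase, of which pparaa was also upregulated for impurities I, Q, and L and gpd1b for impurities I and Q. Both pparaa and gpd1b were not listed for azithromycin. In the glycerolipid metabolism term of KEGG, all 5 listed genes of 48 (10.4%) were downregulated, that is lpin1a, lipg, dgkza, a diacylglycerol kinase, plpp3, a lipid phosphatase, and the acyltransferase mboat1. In the Reactome term for very long-chain fatty acyl-CoA synthesis, all 3 listed genes of 13 (23.1%) were downregulated, namely acsl4b, a long-chain acyl-CoA synthetase, elovl1a, and ppt2b, a thioesterase. The acetyl-CoA synthetase acss2 was downregulated, whereas acsf2, another acyl-CoA synthetase, and pisd, which makes phosphatidylethanolamine in the mitochondrion, were upregulated.

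Both sterol genes listed for impurity J were downregulated, of 5 in any table. These were hmgcra (Entrez 559054), the rate-limiting reductase of cholesterol synthesis, and abca1a, which exports cholesterol to lipoproteins. Downregulation of hmgcra was listed for impurities I, Q, L, and F and not for azithromycin, and that of abca1a for azithromycin and impurities Q, R, and S. Of the 6 bile acid genes in any table, cyp27a1.4 (Entrez 322341), a homologue of sterol 27-hydroxylase, was upregulated for impurity J, azithromycin, and impurities R and L. The gene abcb11a (Entrez 797269), a homologue of the bile salt export pump, was downregulated for impurity J and for impurities I and R but upregulated for azithromycin and impurities Q, S, and F. The cholesterol 24-hydroxylase homologue cyp46a1.4 was downregulated for impurity J alone. The gene cyp7a1, the rate-limiting enzyme of bile acid synthesis, was not listed for impurity J.

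Of the 13 drug metabolism and transport genes in any table, 5 (38.5%) were listed, with 4 upregulated and 1 downregulated, a share near the 32.8% of all genes. The upregulated ones were the P450 genes cyp2p6 and cyp3c3, the glutathione transferase gsto2, and the glucuronosyltransferase ugt1ab. In all 8 tables gsto2 was upregulated, and cyp3c3 in all but that of impurity S. The gene ugt1ab was listed elsewhere only for impurity S, as downregulated. The export pump abcc1 was downregulated in all 8 tables, and porb, a homologue of the reductase that supplies electrons to P450 enzymes, was downregulated for impurity J, azithromycin, and impurities I, Q, and R. The gene cyp3a65 was in none of the tables. Members of the cyp2, cyp3, and ugt1 families are close copies of each other, and the assignment of reads between copies cannot be checked from these tables.

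ABC transporters had one of the largest shares of listed genes of any KEGG term, 7 of 31 (22.6%). In addition to abcb11a, abca1a, and abcc1, which were downregulated, abcc5, abcc9, abcc10, and abca3b were upregulated. The genes abcc5 and abcc9 were listed in no other table, abcc10 was also upregulated for impurities I, R, and F, and abca3b for impurity Q. The uptake transporter slc22a6l, of the organic anion transporter family, was downregulated in all 8 tables.

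Respiratory chain genes were listed in both directions within the same complexes. Upregulated were the complex III genes cyc1 (Entrez 564379) and uqcrb and the complex IV gene cox5ab, and downregulated were the complex III gene uqcrh, the complex IV genes cox5ba (Entrez 415253) and cox7b, and the complex I gene ndufb3. These 7 were 77.8% of the 9 genes of the list in any table, whereas the KEGG term, which adds atp6v1h, held 6.50% of its 123 genes, near the share of all KEGG pairs. Downregulation of cox5ba was listed in all but the impurity S table, while cox7b and ndufb3 were listed for impurity J only. The gene cyc1 was upregulated for impurities J, I, and R and downregulated for azithromycin and impurity F. The malate dehydrogenase mdh2, of the citric acid cycle, the uncoupling protein ucp2, the creatine kinase ckmt2b, and mrpl11, of the mitochondrial ribosome, were downregulated as well, whereas the mitochondrial chaperonin hspd1 and the cyclophilin ppifa were upregulated. Of the 11 genes of the glycolysis, gluconeogenesis, and glycogen list in any table, 1 was listed, ldhbb, a lactate dehydrogenase, which was downregulated for impurities J and F and upregulated for impurities I, R, L, and S. The KEGG glycolysis and gluconeogenesis term held 3 of 66 genes (4.55%), acss2, bpgm, and ldhbb, all downregulated.

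Of the 11 genes of the amino acid, urea, and one-carbon list in any table, 3 (27.3%) were listed for impurity J, all as downregulated. They were glulb, glutamine synthetase, odc1 (Entrez 114426), ornithine decarboxylase, and sardh, sarcosine dehydrogenase. The gene glulb was downregulated for azithromycin too and upregulated for impurities L, S, and F. Together with the carbonic anhydrases ca6 and cahz, glulb made up the KEGG nitrogen metabolism term, whose 3 listed genes of 12 (25.0%) were all downregulated. Outside the list, aldh18a1, of proline synthesis, was upregulated, so that the KEGG term for biosynthesis of amino acids held 1 upregulated and 2 downregulated genes of 70. Urocanase, uroc1, of histidine breakdown, was downregulated for impurity J only. The peroxisomal genes cat, catalase, and hao2, a hydroxyacid oxidase, were upregulated for impurity J. Elsewhere, cat was upregulated for impurities Q and F and downregulated for impurity S. Listing of hao2 was as upregulated for azithromycin and impurities I, Q, S, and F and as downregulated for impurities R and L. With acsl4b, which was downregulated, these genes made up the KEGG peroxisome term, 3 of 77 (3.90%). That share was under the 6.02% of all gene and term pairs of KEGG.

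Secreted proteins of the liver were split. The fibrinogen gene fgb (Entrez 337315) was upregulated for impurity J and in all of the other tables except that of impurity I, where it was downregulated. The complement gene c3b.1 (Entrez 563665) was upregulated for impurities J and I, whereas c6.2 and c7b, of the membrane attack complex, were downregulated. The gene c6.2 was listed in no other table, and c7b was also downregulated for azithromycin. Transferrin, tfa, was downregulated for impurity J and azithromycin and upregulated for impurity Q. The Reactome terms for the common pathway of fibrin clot formation, with 3 of 10 genes (30.0%), and for the regulation of the complement cascade, with 3 of 11 (27.3%), had the largest shares among Reactome terms of at least 10 background genes. The clot term held fgb and a gene known by a clone name as upregulated and serpina7, a serpin, as downregulated.

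Ribosomal protein genes were listed at a share near that of all genes, 10 of 34 (29.4%), with 5 in each direction. Among the upregulated ones were rpl15, rpl26, rpl7a, and rps25, and downregulated were rpl10, rpl21, rps12, rps18, and rps2. In all 8 tables rps18 was downregulated, whereas rps12 was downregulated for impurities J and R and upregulated for azithromycin and impurities I and F. In ribosome assembly and its transcription, polr1a and polr1e, subunits of RNA polymerase I, were downregulated. So were mdn1 and efl1, which act in the maturation of the large subunit, gar1, of the H/ACA particles, and the helicase dhx37. By contrast, nol9, of ribosomal RNA processing, was upregulated for impurity J and for impurities I, R, L, S, and F. Also upregulated were ttf1.2, a homologue of the polymerase I terminator factor, and mbd3a, a chromatin protein. The polymerase I initiation term of Reactome thus held 3 upregulated genes, cdk7 among them, and 1 downregulated gene of 19 (21.1%). Whether reads of these genes were shared with similar copies in the genome cannot be checked here, and the directions of single genes are uncertain in that respect.

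Of the cell cycle genes in any table, 4 of 19 (21.1%) were listed, a share under the 32.8% of all genes. The kinase cdk7 (Entrez 405897), which activates cyclin-dependent kinases and RNA polymerase II, and the repressor e2f4 were upregulated and in no other table, and fen1, the flap endonuclease of DNA replication, was upregulated for impurities J, I, L, and S. The cohesin subunit stag2b was downregulated for impurity J and azithromycin. Among repair genes, xrcc4, of end joining, blm and eme1, of homologous recombination, and ercc5, of nucleotide excision repair, were upregulated, whereas the damage sensor ddb2, the glycosylase tdg.1, and the acetyltransferase kat5a were downregulated. In all 8 tables ercc5 was upregulated and ddb2 was downregulated. Nucleotide excision repair held 4 of 34 genes (11.8%), with cdk7, cul4b, and ercc5 upregulated and ddb2 downregulated.

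Stress and death genes did not form one direction. The transcription factor atf4a, of the integrated stress response, and the chaperones hspa8 and hsp90aa1.1 were downregulated for impurity J, and hspd1 was upregulated, which is 4 of the 10 chaperone and stress genes in any table (40.0%). The gene hsp90aa1.1 was upregulated for impurity I, whereas hspa8 was downregulated for impurities I and Q. The inhibitor of apoptosis birc2 was downregulated for impurity J, azithromycin, and impurity Q and upregulated for impurities R, L, S, and F. The KEGG apoptosis term held 10 of 149 genes (6.71%), with sptan1, a spectrin, upregulated and 9 downregulated, namely akt2l, pik3cb, pik3r1, raf1a, atf4a, birc2, actb1, itpr3, and ptpn13.

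Vesicle traffic and autophagy were represented on both sides. In endocytosis 24 of 285 genes were listed (8.42%), with 13 upregulated and 11 downregulated. The early endosome GTPases rab5aa and rab5b and the ESCRT genes vps28 and vps4b were upregulated, and ap2m1a, the cargo-binding subunit of the AP-2 clathrin adaptor, was downregulated in all 8 tables. The Reactome term for cargo recognition in clathrin-mediated endocytosis held 5 of 40 genes (12.5%), all downregulated, which were ap2m1a, reps1, grk3, gps1, and tfa. Of these, tfa is a carried protein and gps1 belongs to the COP9 signalosome. In autophagy becn1 and pik3c3, of the kinase complex that starts the autophagosome, were upregulated, and the protease atg4a and atg101, of the ULK complex, were downregulated. In the lysosome and phagosome list 3 of 9 genes were listed (33.3%), with atp6v1h, of the proton pump, and rab5aa upregulated and ppt2b downregulated.

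Genes of cells other than hepatocytes were also listed. Muscle markers had 10 of 21 genes listed (47.6%), with 4 upregulated (myl4, mylpfa, mylz3, and tnnt3b) and 6 downregulated (ckmt2b, myhz1.3, smyhc2, tnni2b.2, tnnt1, and tpma). Of these, smyhc2, a slow muscle myosin, was downregulated in all 8 tables, and tnnt3b, a fast troponin, was upregulated for impurities J, S, and F and downregulated for azithromycin and impurities I, Q, R, and L. Markers of endothelial, biliary, and stellate cells had 3 of 4 genes listed, all upregulated, which were tek, an endothelial receptor, acta2, smooth muscle actin, and colec11, a collectin. Each of the 3 was in 1 row, so that this count was 0 when at least 2 rows per gene were required. Outside the list, cldn5b, an endothelial claudin, was downregulated for impurity J and listed in no other table, so endothelial genes lay on both sides. The photoreceptor arrestin arr3b was upregulated, and the macrophage receptor marco was downregulated. None of the 6 intestinal and none of the 3 exocrine pancreas markers in any table was listed for impurity J. The share of these cells in each library, and its part in the results above, was not tested. The cytoskeletal actin actb1 (Entrez 57934) was downregulated for impurity J, azithromycin, and impurities F, L, and R, it was upregulated for impurity S, and actb2 was not listed for impurity J. The cardiac muscle contraction term of KEGG (12 of 86, 14.0%) was made up of 6 respiratory chain genes, 3 subunits of the sodium pump, and myl4, tpma, and the calcium channel subunit cacnb2a. Of the 11 extracellular matrix and adhesion genes in any table, the collagen VI gene col6a1 was upregulated and tnn, a tenascin, was downregulated. In the ephrin signaling term of Reactome all 6 listed genes of 47 (12.8%) were downregulated, among them the receptors epha2b and epha6.

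**Figure D3:**
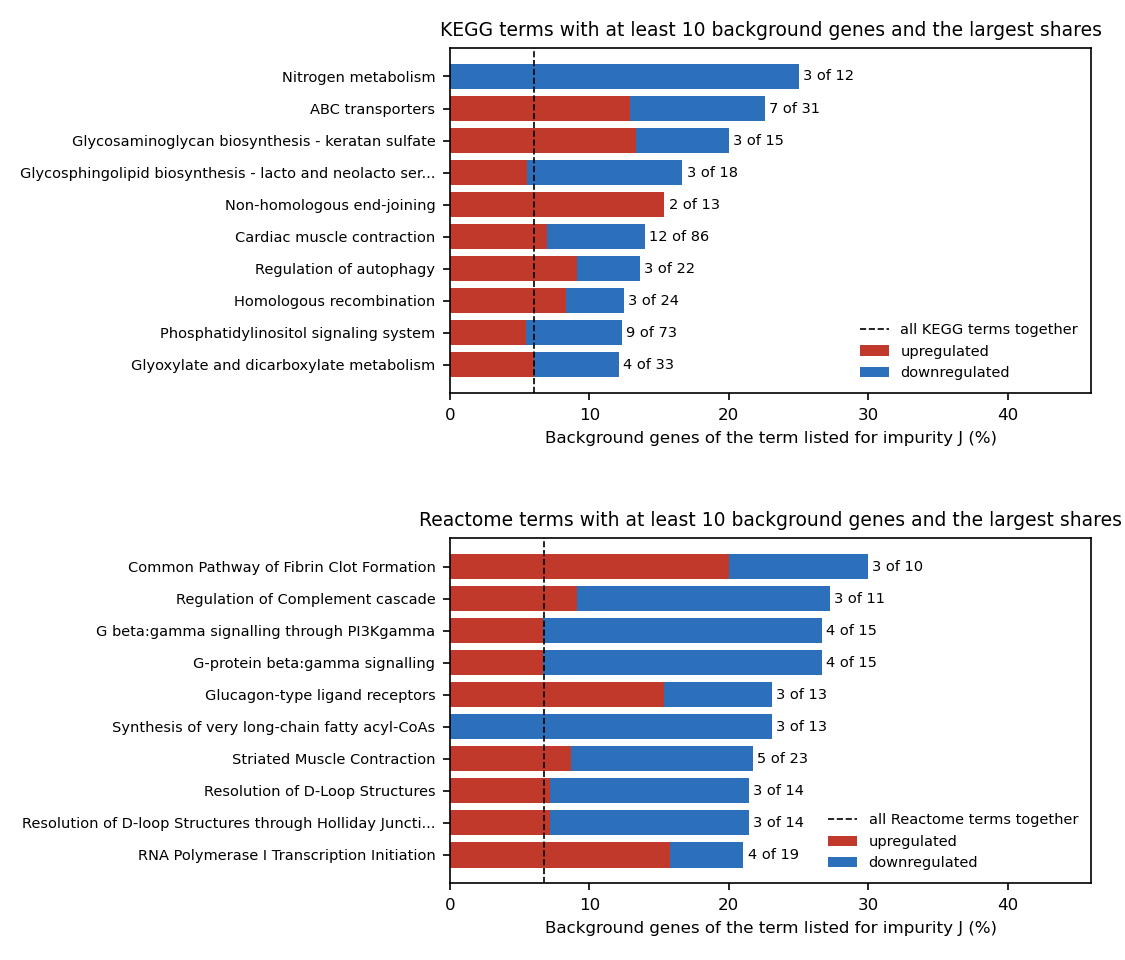
Share of the background genes of a term that were listed for impurity J (x axis, %) for the 10 KEGG and the 10 Reactome terms with the largest shares, of the terms with at least 10 background genes; red is the upregulated and blue the downregulated part, and the dashed line is the share over all terms of the database. Nitrogen metabolism (3 of 12) and the synthesis of very long-chain fatty acyl-CoAs (3 of 13) are blue throughout, and most of the other bars hold both colors.

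Across all terms, 625 of 10387 gene and term pairs of KEGG (6.02%), 2659 of 39378 of Reactome (6.75%), and 79 of 1434 of PANTHER (5.51%) were listed. The KEGG rows numbered 122 and held 263 distinct genes, the 693 Reactome rows held 223, and the 55 PANTHER rows held 23. A row held a median of 2 genes, 329 rows held 1 gene, and the largest, the KEGG term for metabolic pathways, held 59 of 1083 (25 upregulated and 34 downregulated). The terms ranked by share are therefore mostly small. In PANTHER, nicotinic acetylcholine receptor signaling (3 of 24, 12.5%) was the first, with actb1 and the myosins myhz1.3 and smyhc2, all downregulated. Of terms with at least 5 listed genes, 7 lay in one direction. The number of all terms of that size was not counted, so the 7 cannot be called many or few. The 3 upregulated ones were the Reactome terms for transport by ABC-family proteins (6 of 60, 10.0%), S phase (5 of 81, 6.17%), and UCH proteinases (5 of 56, 8.93%). The share for S phase was under the 6.75% of all Reactome pairs. Each of the 3 terms contained psma1, psmd8, and psme4b. The 4 downregulated ones were glycerolipid metabolism, progesterone-mediated oocyte maturation (7 of 92), cargo recognition in clathrin-mediated endocytosis, and ephrin signaling. The oocyte term consisted of akt2l, araf, raf1a, mapk14b, pik3cb, pik3r1, and hsp90aa1.1, which are the kinases described above and a chaperone.

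A few genes recurred in many rows. The proteasome genes psma1, psmd8, and psme4b were in 156, 155, and 148 rows, and at least one of them was in 17.9% of the 870 rows. No other gene stood beside them in 36 rows (4.14%), whatever the name of the term. At least one of pik3r1 and pik3cb was in 90 rows (10.3%), and at least one of camk2d1, rasgrf1, mapk14b, mlst8, and rhoab in 215 (24.7%). These 10 genes reached 318 rows (36.6%), and the 870 rows comprised 468 distinct sets of genes. By contrast, psmd1 was in 1 row and adrm1 in 5. The median gene was in 4 rows and 77 genes were in 1.

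**Figure D4:**
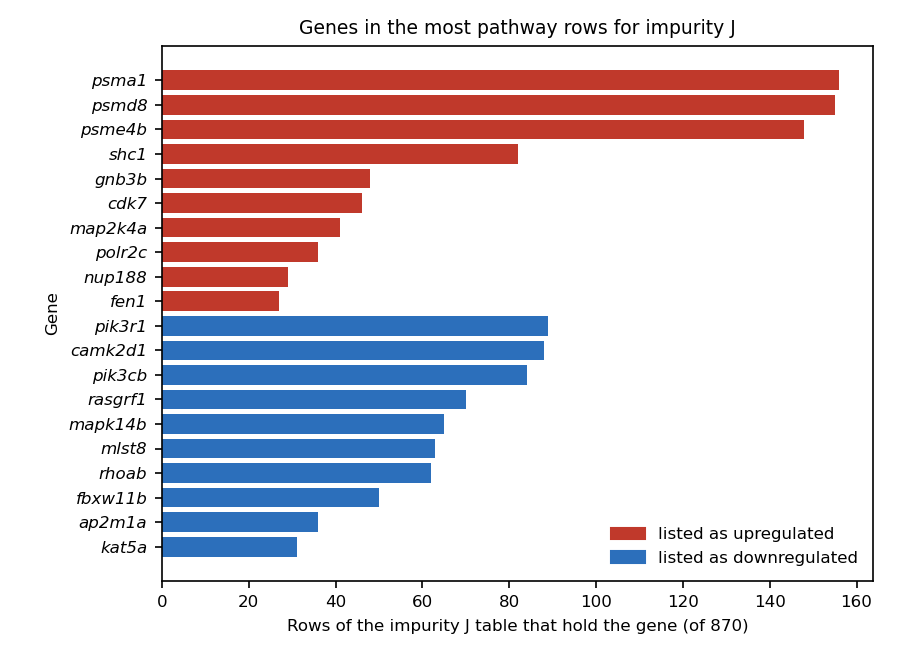
Number of rows of the impurity J table that hold a gene (x axis) for the 10 upregulated (red) and 10 downregulated (blue) genes in the most rows. The 3 proteasome genes reach 148 to 156 of the 870 rows, and the next gene, pik3r1, reaches 89.

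Of the 378 genes, 19 (5.03%) were listed in opposite directions for impurity J and azithromycin. Only a gene listed for both compounds can be opposite, and many of the 378 were not listed for azithromycin. The share among genes listed for both is therefore higher than 5.03%. Since the DMSO library is common to both comparisons, a gene with opposite directions differs between the impurity J library and the azithromycin library. With 1 library of each, the difference was not tested. Upregulated for impurity J and downregulated for azithromycin were 8 genes, namely cyc1, psmd1, tnnt3b, cct6a, of the cytosolic chaperonin, nxt2, of mRNA export, the splicing factor acin1a, exoc7, of the exocyst, and tpd52. Downregulated for impurity J and upregulated for azithromycin were 11 genes, namely abcb11a, odc1, rps12, araf, tpma, cacnb2a, dhx37, the kinase ttbk2a, tdh, threonine dehydrogenase, the nucleotidase cant1b, and zgc:100918. Of the 19 genes, nxt2 and odc1 were listed in these 2 tables only. The gene acin1a was upregulated for impurity J and the other 6 impurities and downregulated for azithromycin.

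Opposite to impurity J in every other table that listed them, with at least 3 such tables, were 3 genes. The gene racgap1 (Entrez 323197), a GTPase-activating protein of cytokinesis, was upregulated for impurity J and downregulated for the other 6 impurities, and it was not listed for azithromycin. The gene dhx37 (Entrez 100009635), an RNA helicase of the small ribosomal subunit, was downregulated for impurity J and upregulated for azithromycin and impurities Q, R, L, S, and F. The integrin subunit itga6b (Entrez 541320) was downregulated for impurity J and upregulated for impurities I, Q, R, and F.

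**Figure D5:**
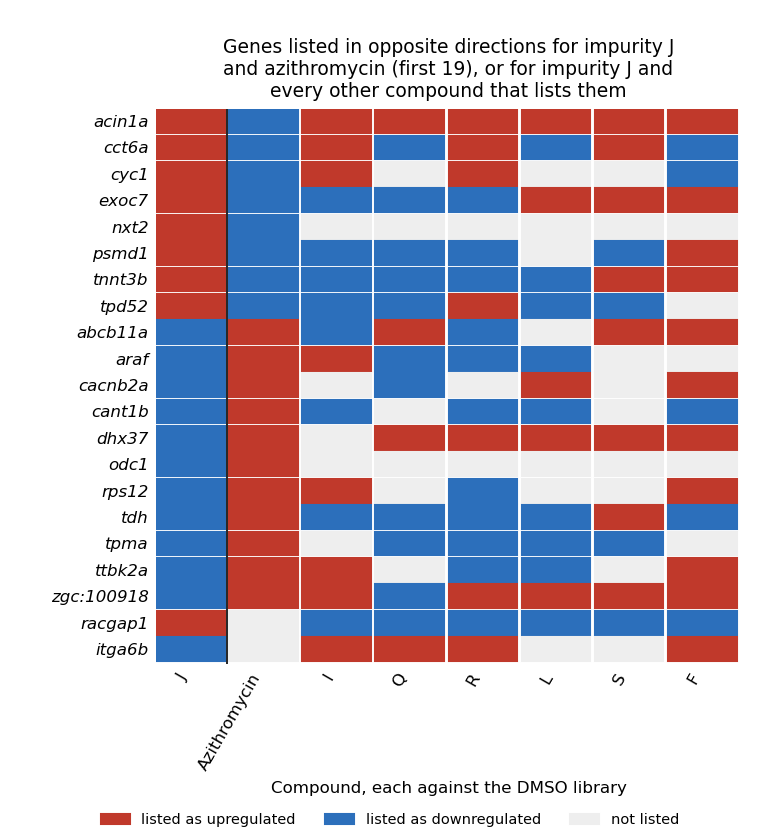
Direction of the 19 genes listed in opposite directions for impurity J (left column) and azithromycin (next column), and of racgap1 and itga6b, in all 8 tables; red is upregulated, blue is downregulated, and grey is not listed. The row of racgap1 is red for impurity J and blue for all other impurities, and the row of dhx37 is blue for impurity J and red for azithromycin and impurities Q, R, L, S, and F.

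A further 49 genes, 4.25% of the 1154, were listed for impurity J and in no other table, with 27 upregulated and 22 downregulated. As no sizes are given, such a gene may lie just under the threshold for another compound. The upregulated ones in the most rows were cdk7, atp6v1h, gcgra, the transcription factor tfap2c, abcc9, mbd3a, pdxka, pyridoxal kinase, acsf2, the retinal arrestin saga, and the SUMO protease senp1. The downregulated ones in the most rows were ppm1ab, a phosphatase, arpc4l, of the Arp2/3 complex, acsl4b, mdh2, avpr1aa, brk1, of the WAVE complex, the helicase ddx39b, ndufb3, ckmt2b, and c6.2. Of the genes just named, arpc4l and brk1 act in actin assembly. Other actin genes listed for impurity J lay on both sides. The formin gene fmn2a was upregulated for impurity J, azithromycin, and impurities I, Q, S, and F. The KEGG term for regulation of the actin cytoskeleton held 3 upregulated genes (mylpfa, pak2b, and ssh2a) and 11 downregulated genes of 221, arpc4l and brk1 among the latter. These 14 genes were 6.33% of the term, near the 6.02% of all gene and term pairs of KEGG.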

How the data were processed

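RNA of dissected larval liver was sequenced by a company for the authors. The submitters' processing notes name fastp, FastQC, HISAT2, and GRCz11, without versions; the counting tool and the test for DEGs are not given in the sources used here. The deposited tables give gene numbers per term, the authors' p-values and corrected p-values, and the listed genes with symbol, Entrez identifier, and direction. Only KEGG, Reactome, and PANTHER rows occur. The p-value of the authors was used only to recover the list and background sizes, by searching for sizes at which Fisher's exact test (one-sided) returned all of them, with lists of 200 to 3000 and backgrounds of 5000 to 40000 genes searched. In that test the listed genes were set beside the background genes and not taken out of them. This search was tested on simulated tables.

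Genes were given their current RefSeq symbols through the Entrez identifier (378 of 378 matched; 38 symbols differed from the table and 14 had no usable symbol there). All 625 KEGG gene entries had the direction that the color in the KEGG link gives. Since no expression values were given, the planned description was kept and no test was run. The shares of terms use those with at least 10 background genes (720 rows).

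Named were the AP-1 genes, beta-actins, and members of 30 gene lists (up to 8 per list), the 10 genes of each direction in the most rows, genes opposite to azithromycin or to at least 3 other tables that list them, the 10 genes of each direction listed in no other table, and genes of the 10 terms with the largest shares in each database. The members and lists were chosen with earlier results of these data known, and genes and terms named outside this rule were chosen after their values were seen. Alternatives were single databases, 1 entry per symbol, at least 2 rows per gene, terms of up to 300 background genes, and minimums of 5 and 20 background genes. Computations ran in Python 3.11.15 with pandas 2.3.3, scipy 1.17.1, and numpy 2.4.6, and figures were drawn with matplotlib 3.10.9.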

Additional observations from a re-analysis of the deposited data

Results flagged for a closer look

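The 19 genes listed in opposite directions for impurity J and azithromycin were flagged because the effects against the same DMSO library had opposite signs. For impurity J, 8 of them were upregulated and 11 downregulated. No such count was made for other pairs of compounds, so the 19 cannot be called many or few. The difference was not tested, as there was 1 library of each compound.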

How the results depend on the processing

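The number of genes depended on the database that supplied the rows. With Reactome rows only, 223 genes were listed, 9 were opposite to azithromycin, and 52 belonged to a gene list. With PANTHER rows only, these numbers were 23, 1, and 7. With KEGG rows only, with 1 entry per symbol, with at least 2 rows per gene, and without terms of more than 300 background genes, these 3 counts stayed within 1.5 times the values given. Counts by direction, for each list and for all genes, left that range more often. Of 62 such counts, 42 moved with PANTHER rows only and 21 with Reactome rows only. With KEGG rows only 11 moved, and with at least 2 rows per gene 9 did. The 3 upregulated endothelial, biliary, and stellate markers became 0 with at least 2 rows. The number of ranked terms, 720, was 821 with a minimum of 5 background genes and 537 with 20. Fewer rows hold fewer genes by construction. The unknown depth and the single library per condition limit every direction given. No paired analysis was possible because each condition had 1 library.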

Other observations

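Several further groups had listed genes for impurity J. Glycan genes were found in 2 of the KEGG terms with the largest shares. In keratan sulfate synthesis (3 of 15) b3gnt2b, a glycosyltransferase that was upregulated in all 8 tables, and the sulfotransferase chst1 were upregulated and the galactosyltransferase b4galt4 was downregulated. In the lacto and neolacto series (3 of 18, 16.7%) b3gnt3.4 and b4galt4 were downregulated beside b3gnt2b. The heparan sulfate enzyme ndst1b was upregulated in all 8 tables. In the phosphatidylinositol signaling term (9 of 73, 12.3%), the inositol kinases itpk1b and ip6k1 and the phosphatase ocrl were upregulated for impurity J, and the monophosphatase impa1 and the calcium channel itpr3 were downregulated.

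Nuclear transport and mRNA processing were represented on both sides. The nuclear pore genes nup188 and aaas were upregulated in all 8 tables, and the transport GTPase ran and its activator rangap1b were upregulated for impurity J. The mRNA surveillance term held 8 of 76 genes (10.5%), with acin1a, dazap1, nxt2, pabpc1a, and sympk upregulated and ddx39b, ppp2cb, and srrm1 downregulated. In the spliceosome term (8 of 119, 6.72%), acin1a, hnrnpm, and snrpb2 were upregulated and ddx39b, hspa8, puf60a, srsf1a, and zgc:163098 downregulated.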
